A study of Mus musculus with 8 samples.

Results

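Hsp90ab1, Rpl13a and Nono are 3 of the 15 genes that could be named on this array, each through a probe printed in 20 copies and tied to a RefSeq transcript. The array held 60930 probes outside the control classes, and 44078 of them were bright enough to test in cultured cells. The 3 genes were selected on their measured array levels, which lay below those of wild-type cells in myocardin-expressing cells and in whole aorta, so those differences are given as a description with no test. Mouse aortic smooth muscle cells at passage 3 were carried through 3 conditions with 2 arrays each. The wild-type control received empty adenovirus (AdEmpty), as did the Srf knockout, and a further wild-type group received adenovirus carrying Myocd (AdMyocd). All cultured groups therefore carried virus, at a multiplicity of infection of 100, for 3 days. Wild-type aorta and wild-type liver, freshly isolated, had 1 array each; the labels repeat the culture and virus protocol for them too. The labels do not say how Srf was removed, which promoter drives Myocd, the age or sex of the animals, or whether replicates came from separate cultures, so the p-values cover no more than the spread among these arrays, part of which may be technical.

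Srf encodes serum response factor, which binds CArG boxes in cytoskeletal and contractile genes, and myocardin is a muscle coactivator that works through it. The genes described here belong to the general machinery of the cell. Hsp90ab1 encodes HSP90 beta, the constitutive cytosolic chaperone that, with ATP and cochaperones, folds and holds kinases, steroid receptors and other client proteins. Rpl13a encodes a protein of the large ribosomal subunit that also takes part in silencing translation of some inflammatory mRNAs, and its introns host small nucleolar RNAs. Nono encodes a nuclear protein that binds RNA and DNA, pairs with Sfpq or Pspc1, and takes part in transcription, splicing and paraspeckle formation. Rpl13a is widely used as a reference gene in expression work.

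The sequences upstream of 2 of the 3 genes are shown because the genes lay lower together in several groups and Srf acts through a DNA motif. RefSeq start sites on GRCm38.p6 were matched for Rpl13a and Nono, and Hsp90ab1 was not matched. Each line gives the 250 bases before the transcription start, 5′ to 3′ on the strand of the gene, with capitals marking matches to the motifs searched. Rpl13a lies on the minus strand at chr7:45128746-45128995 and Nono on the plus strand at chrX:101429401-101429650.
Rpl13a: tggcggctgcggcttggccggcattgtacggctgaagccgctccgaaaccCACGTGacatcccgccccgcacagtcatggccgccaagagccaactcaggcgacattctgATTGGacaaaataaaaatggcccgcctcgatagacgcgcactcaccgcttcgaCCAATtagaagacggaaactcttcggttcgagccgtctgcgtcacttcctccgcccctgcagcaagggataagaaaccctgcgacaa
Nono: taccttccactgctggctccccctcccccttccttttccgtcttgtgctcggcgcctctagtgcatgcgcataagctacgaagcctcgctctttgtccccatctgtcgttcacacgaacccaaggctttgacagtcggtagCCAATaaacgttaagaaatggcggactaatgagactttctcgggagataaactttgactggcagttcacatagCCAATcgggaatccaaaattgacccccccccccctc

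Both windows held 2 copies of CCAAT, counted over both strands together. The copies started 140 and 87 bases before the start of Rpl13a and 109 and 36 bases before that of Nono. CCAAT was found, in any number of copies, in 33.8% of all 32851 promoter windows of this length. The share with 2 copies was not counted. The Rpl13a window also held CACGTG, which 6.02% of windows held. Neither window held the CArG box (in 1.47% of windows), TATAAA (12.4%) or GAANNTTC, the core of a heat shock element (6.69%), searched on both strands. No motif overlapped another. These matches describe letters, and no binding was measured here.

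Cultured arrays had a 75th percentile of processed intensity, used for scaling, between 452 and 498. That percentile was 364 for the aorta array and 165 for the liver array. Signal well above background was recorded for 68.2% to 74.7% of probes in culture, for 68.9% in aorta and for 62.1% in liver. The liver array stood apart in a further measure. Its control spots for the 5′ end of Pgk1 were not well above background (0 of 9), whereas all such spots were on the other 7 arrays. The log2 signal of the 3′ minus the 5′ spots of Gapdh was 1.88 in liver, against -0.36 in aorta and -0.64 to -0.29 in cultured cells. The same difference for Pgk1 was 11.2 in liver and 4.60 in aorta, both above the 3.05 to 3.91 of cultured cells. Slide 1 carried the wild-type and knockout arrays, and slide 2 the remaining 4. No probe was tied by name to Srf, Myocd or any of 26 cell type markers listed, so neither the labels' targets nor the cell types were checked here.

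A level below is the log2 processed intensity of a probe, averaged over its unflagged spots, minus the 75th percentile of its array. Every unflagged spot of the 3 genes was well above background on all 8 arrays, and none was saturated. Within an array, the copies of a probe agreed closely. The median over arrays of the SD between spots was 0.072 for Hsp90ab1, 0.046 for Rpl13a and 0.051 for Nono, from 17 to 20 spots per gene and array. This is measurement spread within an array and does not stand for replicate error.

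Hsp90ab1, the HSP90 beta chaperone gene, had levels of 8.61 and 8.49 in wild-type cells, 8.22 and 8.11 in Srf knockout cells, and 7.90 and 7.83 with Myocd, against 6.71 in aorta and 4.12 in liver. Both wild-type arrays lay above all others, and no 2 groups overlapped. The share of all probes with their groups apart in this way was not counted. In means, the order was wild-type (8.55 ± 0.090, SD, n = 2), knockout (8.16 ± 0.079), Myocd (7.87 ± 0.047), aorta and liver. The unscaled intensities had the same order, with 193689 and 163433 in wild-type cells, 134522 and 137210 in knockout cells, 115684 and 106028 with Myocd, 38037 in aorta and 2867 in liver.

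Rpl13a, the ribosomal protein gene, had levels of 7.28 and 7.62 in wild-type cells, 6.96 and 6.85 in knockout cells, and 6.80 and 6.65 with Myocd, against 4.57 in aorta and 4.97 in liver. Its wild-type arrays were 0.33 apart, the widest gap between replicates among the 3 genes, with replicate 2 the higher. The group means were 7.45 ± 0.23, 6.91 ± 0.072 and 6.73 ± 0.11 (SD, n = 2 each). No 2 cultured groups overlapped, and the share of all probes with that trait was not counted. The knockout and Myocd means were 0.18 apart, with an SE of 0.17 from the fit over all cultured groups. This difference was not tested. Rpl13a was the one gene of the 3 with a lower scaled level in aorta than in liver. Its unscaled intensities had the other order, with 8616 in aorta and 5169 in liver. RefSeq names 1 pseudogene of Rpl13a, and the probe sequence was not used here, so its signal may include copies.

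Nono, the gene of the nuclear RNA-binding protein, had levels of 6.68 and 6.80 in wild-type cells, 6.44 and 6.34 in knockout cells, and 6.35 and 6.29 with Myocd, against 4.45 in aorta and 2.51 in liver. The wild-type arrays again lay above all others, while the knockout and Myocd arrays overlapped. The group means were 6.74 ± 0.085, 6.39 ± 0.066 and 6.32 ± 0.043 (SD, n = 2 each), and the last 2 were 0.07 apart with an SE of 0.14.

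**Figure D1:**
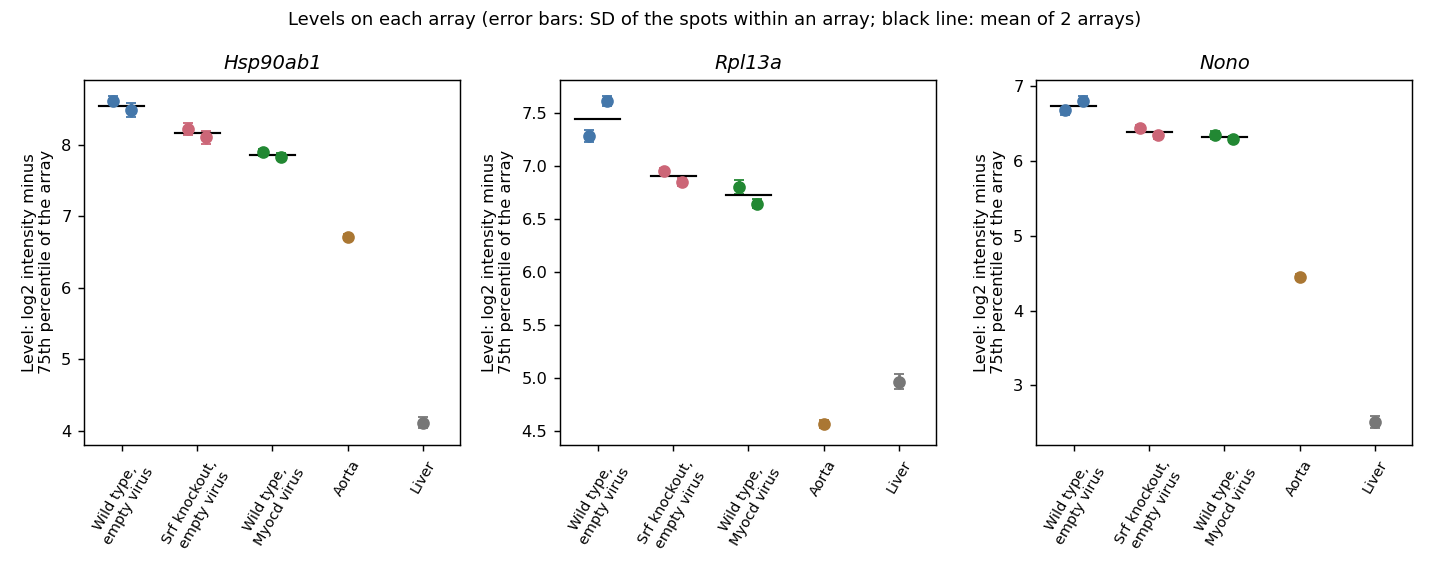
Level of each gene on every array (y axis, log2 intensity minus the array's 75th percentile; the range differs between panels) by group (x axis). Points are arrays, bars the SD of spots within an array and black lines the mean of 2 arrays; wild-type arrays are highest in each panel, liver is lowest for Hsp90ab1 and Nono, and aorta is lowest for Rpl13a (4.57).

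For each of the 3 genes both wild-type arrays exceeded the other 6 arrays, an arrangement that 8.8% of probes with a value on every array had. The choice of the genes fixed part of this arrangement. Knockout and liver levels were the part that the choice did not use. Of the 12 other named genes, 6 also had lower means than wild-type cells both with Myocd and in aorta (G6pd2, Gapdh, Gusb, Hprt, Tbp and Tuba1b), as did 30.1% of all probes. Only Hprt and Tbp among these 12 were lower in all 4 other groups, as were 16% of all probes. These counts go by sign alone. Among the smallest differences were Gapdh with Myocd at -0.007 (SE 0.19), Tuba1b with Myocd at -0.15 (SE 0.20) and Hprt in liver at -0.04.

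The Srf knockout contrast asks how these genes stand in cells without serum response factor, and it lies within slide 1. It shares its wild-type arrays with the differences that chose the genes. All 3 genes had lower levels in knockout than in wild-type cells, but none passed the test over all probes. The log2 change of Rpl13a was -0.54 (SE 0.17, 95% interval -0.96 to -0.12, limma adjusted p = 0.0743), a 1.46-fold lower level. For Hsp90ab1 it was -0.39 (SE 0.14, 95% interval -0.74 to -0.042, limma adjusted p = 0.107), 1.31-fold lower. For Nono it was -0.35 (SE 0.14, 95% interval -0.69 to -0.0041, limma adjusted p = 0.135), 1.27-fold lower. In each gene both knockout arrays lay below both wild-type arrays, as they did for 26.4% of probes. In this fit the intervals did not reach a 2-fold lower level, and for Hsp90ab1 and Nono their upper ends lay close to 0.

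The knockout called 9096 of 44078 probes at an adjusted p under 0.05 (limma), that is 20.6%, with 8.4% of probes called lower, and 0 of the 3 genes was among them. Their unadjusted limma p values, from the fit over all probes, were 0.0192 for Rpl13a, 0.0337 for Hsp90ab1 and 0.0480 for Nono, and all 3 lie under 0.05, as did 36% of probes. Read against that share, the genes are not unusual, since 25.8%, 31.4% and 35.5% of probes had a smaller p than Rpl13a, Hsp90ab1 and Nono. In size, 13.7% of probes had a lower log2 change than Rpl13a, 19.3% a lower one than Hsp90ab1 and 21.2% a lower one than Nono. Among the 12 other named genes the median change was -0.01, with 6 of 12 below 0 and a range from -1.22 for Tfrc, the transferrin receptor gene, to 0.87 for G6pd2, a glucose-6-phosphate dehydrogenase gene.

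**Figure D2:**
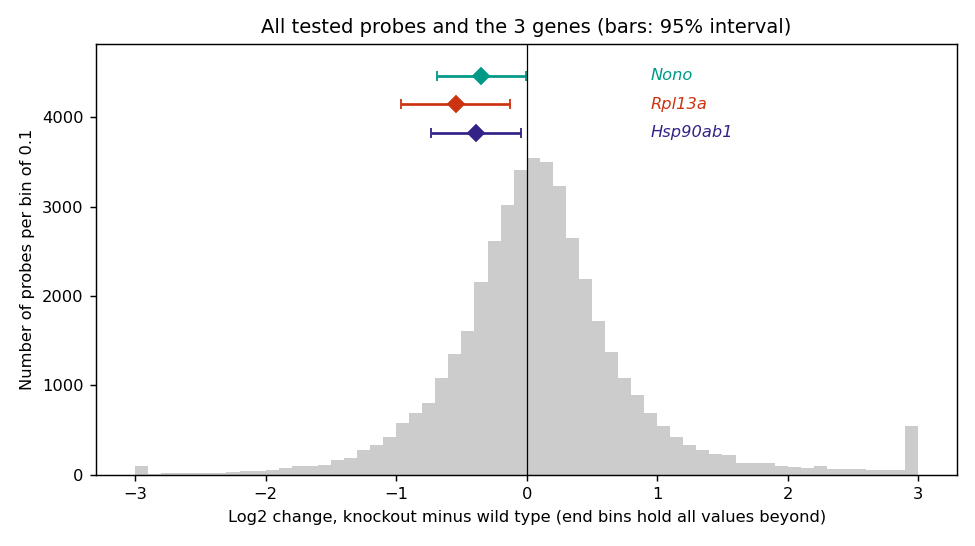
Number of probes (y axis) per bin of the log2 change between Srf knockout and wild-type cells (x axis), with Hsp90ab1, Rpl13a and Nono as diamonds and their 95% intervals as bars above. The 3 genes sit at -0.39, -0.54 and -0.35, left of the median of all probes at 0.07, and well inside the distribution.

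Some other settings took these genes past the threshold. Without wild-type replicate 1, Rpl13a passed at -0.71 (limma adjusted p = 0.0370), and without replicate 2 it stood at -0.38 (limma adjusted p = 0.128). Scaling on the array median moved the median change of all probes from 0.07 to -0.11, and Rpl13a and Hsp90ab1 then passed at -0.73 and -0.58 (limma adjusted p = 0.0416 and 0.0432). Relative to the median of all probes, the changes were -0.62 for Rpl13a, -0.46 for Hsp90ab1 and -0.42 for Nono. That scaling also turned the split of all calls from 5395 higher and 3701 lower to 3715 and 6127, and scaling on the 12 other named genes gave 6137 and 2285 with none of the 3 genes called. With normexp background correction all 3 passed (limma adjusted p = 0.0243 for Rpl13a, 0.0342 for Hsp90ab1 and 0.0383 for Nono), at changes of -0.56, -0.40 and -0.36. Probe filters, variance models, a replicate block and omission of the Myocd group or either of its arrays left each change as first given. Only the spread and adjusted p differed there, so the sign in those settings is no separate check. Over all 17 alternatives the changes stayed below 0 for every gene, from -0.73 to -0.38 for Rpl13a, -0.58 to -0.31 for Hsp90ab1 and -0.53 to -0.27 for Nono. Rpl13a passed in 4 of them, Hsp90ab1 in 2 and Nono in 1, and the fit of only these 2 groups counts 3 times in the 17, as leaving out either Myocd array gives that fit too.

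**Figure D3:**
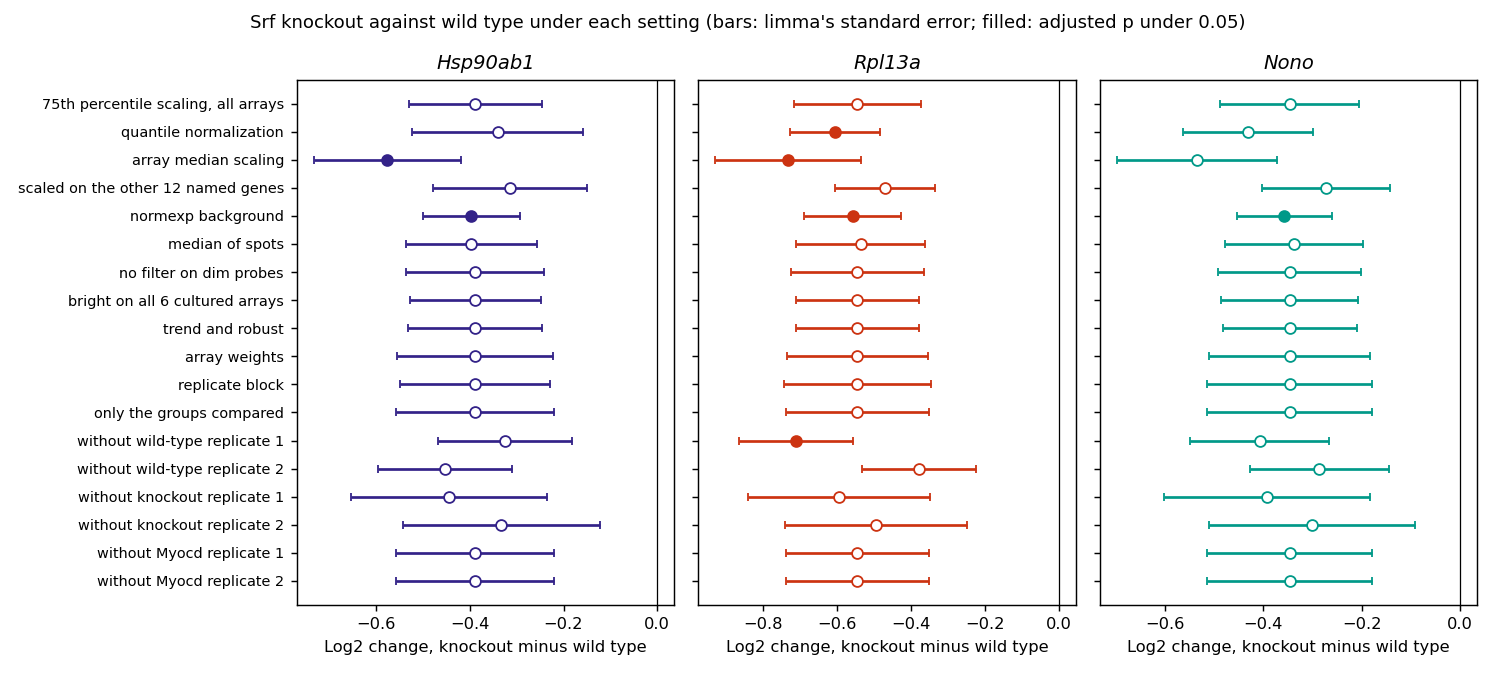
Log2 change between Srf knockout and wild-type cells (x axis, whose range differs between panels) for each gene under every setting (y axis), with limma's standard error as bars and filled points where the adjusted p was under 0.05. All points lie below 0; Rpl13a has 4 filled points, Hsp90ab1 2 and Nono 1.

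The same sign appeared at every printed position. At each of 20 positions on the array for Hsp90ab1, 19 for Rpl13a and 16 for Nono with unflagged spots on all 4 arrays, the mean of the knockout spots lay below that of the wild-type spots. The differences ranged from -0.47 to -0.28 for Hsp90ab1, -0.62 to -0.47 for Rpl13a and -0.42 to -0.29 for Nono. Positions on one array share its RNA and labelling, so they are not replicates.

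With Myocd adenovirus, the contrast that helped choose the genes, Rpl13a stood 1.65-fold below wild-type cells with empty virus (log2 difference -0.72, SE 0.17). Hsp90ab1 was 1.61-fold lower (-0.69, SE 0.14) and Nono 1.34-fold lower (-0.42, SE 0.14). In all 3 genes both Myocd arrays lay below both wild-type arrays, an order that 30.1% of probes had. The median difference was -0.02 over all probes and 0.01 over the 12 other named genes. This contrast lies across slides, so slide and Myocd cannot be told apart. Myocd against knockout cells also lies across slides. In that comparison Myocd cells stood at -0.30 for Hsp90ab1 (SE 0.14), -0.18 for Rpl13a (SE 0.17) and -0.07 for Nono (SE 0.14). Scaling on the array median turned the last value to 0.03.

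Aorta, the other sample used in the choice, stood well below the cultured cells. Its array and the wild-type arrays were on different slides. The level of Rpl13a was 7.38-fold below the wild-type mean (log2 difference -2.88), that of Nono 4.89-fold (-2.29) and that of Hsp90ab1 3.59-fold (-1.84). Each was at least 2-fold lower, as were 22.8% of probes. None of the 12 other named genes had a more negative difference than Rpl13a or Nono, and 3 (Tfrc, Tuba1b and G6pd2) had a more negative one than Hsp90ab1, an order that rests on values used to choose the genes. Of these 12, 9 were lower in aorta (range -2.20 to 2.83, median -1.04), while the median over all probes was 0.08. Against Myocd cells, on the same slide, aorta stood 4.47-fold lower for Rpl13a (log2 difference -2.16), 3.66-fold lower for Nono (-1.87) and 2.23-fold lower for Hsp90ab1 (-1.16), each at least 2-fold, as were 22.2% of probes. Aorta thus lay below all 6 cultured arrays for each gene, as it did for 34.5% of probes. Scaling on the 12 other named genes brought the differences from Myocd cells to -1.58, -1.29 and -0.58 and those from wild-type cells to -2.22, -1.62 and -1.18. The larger 3′ minus 5′ difference of Pgk1 in aorta moves with these lower levels, and its part in them was not tested. Single arrays give no replicate check, and in tissue, fewer cells of a type and less RNA per cell cannot be told apart.

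Liver did not enter the choice, and it carried the lowest levels of Hsp90ab1 and Nono. Against wild-type cells, on the other slide, Hsp90ab1 stood 21.6-fold lower in liver (log2 difference -4.43), Nono 18.7-fold (-4.23) and Rpl13a 5.59-fold (-2.48). All 3 were at least 2-fold lower, as were 28.3% of probes, although the median over all probes was 0.63 higher in liver at this scaling. The 12 other named genes ranged from -5.14 to 3.84 in liver, with 7 of them lower. Some of them were dim there, with unscaled intensities of 83 for G6pd2 (the -5.14), 65 for Tbp and 62 for Ldhal6b. The low 75th percentile of the liver array and the loss of signal at the 5′ end of Pgk1 move with these values, and their part in them was not tested. Aorta exceeded liver by 2.59 for Hsp90ab1 (6.03-fold) and by 1.94 for Nono (3.84-fold). The share of probes at least 2-fold higher in aorta was not counted. In the other direction, 0 of the 3 genes was at least 2-fold lower in aorta than in liver, against 33% of probes. For Rpl13a aorta stood at -0.40 against liver, which shrank to -0.02 with quantile normalization and stayed below 0 in all 5 alternatives. The median of aorta minus liver over all probes was -0.43. Relative to that median, Rpl13a stood at 0.03.

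**Figure D4:**
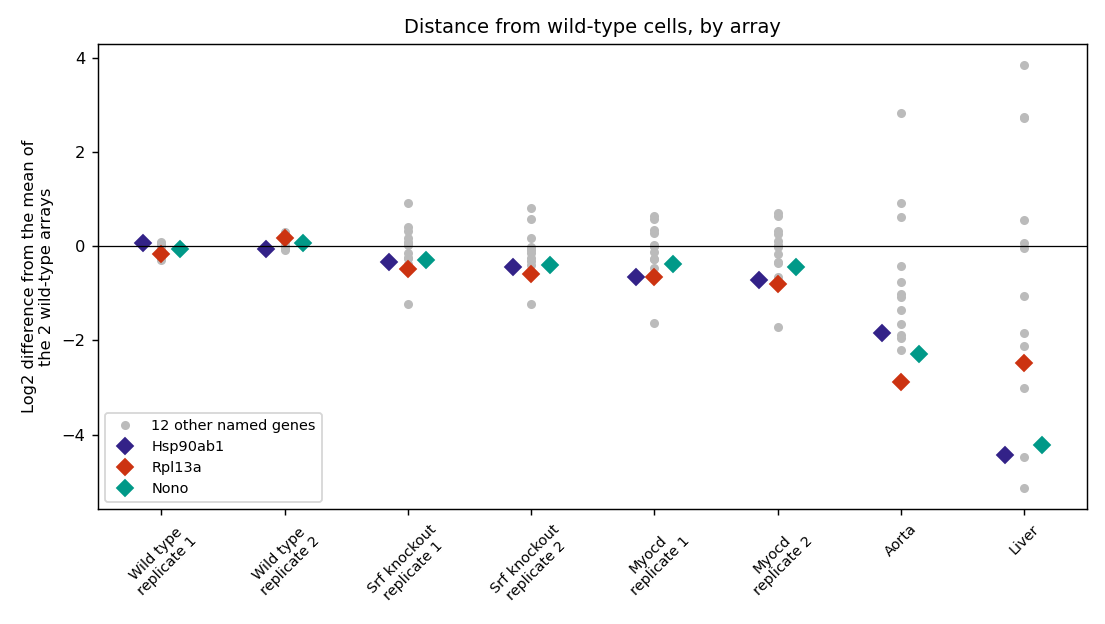
Log2 difference of each named gene from the mean of the 2 wild-type arrays (y axis) on every array (x axis), with Hsp90ab1, Rpl13a and Nono as coloured diamonds and 12 other named genes as grey points. The 3 genes lie below 0 on all 6 arrays that are not wild-type; Rpl13a is the lowest named gene in aorta (-2.88) but stands above Hsp90ab1 and Nono in liver (-2.48).

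The 3 genes did not move by equal amounts, and differences between their changes do not depend on how an array is scaled by a constant. Relative to wild-type cells, the change of Rpl13a minus that of Hsp90ab1 was -0.16 and -0.15 on the knockout arrays and 0.01 and -0.08 on the Myocd arrays. All 4 values lie within the 2 wild-type arrays, which stood at -0.23 and 0.23. In aorta this difference was -1.04 and in liver 1.95, both outside the wild-type range and of opposite sign. The distance from wild-type cells was thus larger for Rpl13a than for Hsp90ab1 in aorta and smaller in liver. The change of Nono minus that of Hsp90ab1 was 0.03 and 0.05 in the knockout, 0.27 and 0.27 with Myocd, -0.45 in aorta and 0.21 in liver, against -0.12 and 0.12 in wild-type cells. The change of Rpl13a minus that of Nono was -0.19 and -0.20 in the knockout, -0.26 and -0.35 with Myocd, -0.59 in aorta and 1.75 in liver, all outside the -0.11 and 0.11 of wild-type cells. Only 2 wild-type arrays set these ranges. Their values are taken from their own mean, so they mirror each other by construction and reflect a single gap. The differences were not tested.

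Likeness of pattern was described by Pearson's r over the 8 arrays among the 15 named genes. Hsp90ab1 was most like Nono (r = 0.99), Tbp, the TATA-binding protein gene (0.98), and Gusb, the lysosomal beta-glucuronidase gene (0.96). For Nono the order was Hsp90ab1 (0.99), Gusb (0.97) and Tbp (0.95). Rpl13a was most like Tuba1b, an alpha-tubulin gene (0.96), Nono (0.89) and Gusb (0.87). The choice of the 3 genes for shared lower levels with Myocd and in aorta fixed part of the likeness among them, and arrays of a group share their condition. Over the 6 cultured arrays alone, r was 0.91 between Hsp90ab1 and Nono, 0.89 between Hsp90ab1 and Rpl13a and 0.99 between Rpl13a and Nono. It was also high with some genes outside the 3 and lower with others. Hprt, a purine salvage gene, gave 0.97 with Rpl13a and 0.94 with Nono, and Tbp gave 0.93 with Hsp90ab1 and 0.94 with Nono. In contrast, Rpl13a and Tuba1b gave 0.53, and Gusb gave 0.62 with Hsp90ab1, 0.37 with Nono and 0.43 with Rpl13a. An r above 0.9 over all arrays with Hsp90ab1 was found for 13.4% of 43963 probes, with Nono for 14% and with Rpl13a for 5.18%.

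Other members of the pathways could not be set beside these genes by name. Of 83 cytosolic ribosomal protein genes listed, 1 was named on the array (Rpl13a), as were 1 of 31 chaperone and cochaperone genes (Hsp90ab1) and 1 of 16 paraspeckle and related RNA-binding genes (Nono). Of 19 common reference genes, 12 were named, including these 3.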

How the data were processed

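One-colour Cy3 arrays of 8 samples were used. Per the file headers, the authors extracted a processed intensity per spot with Agilent Feature Extraction 11.0.1.1, which is background-subtracted but not scaled between arrays. A table of log2 values deposited by the authors has a normalization not given in these sources. It holds none of the 3 genes and served only as an alternative for counts of calls. Flagged spots were left out, log2 intensities of one probe averaged, and the array's 75th percentile subtracted. Probes well above background (in at least 50% of their spots) on both arrays of 1 or more cultured groups were tested with limma 3.58.1 (lmFit, eBayes; R 4.3.3) over the 6 cultured arrays (residual degrees of freedom 3), as a two-sided test with Benjamini-Hochberg adjustment and a threshold of 0.05. The script was tested on simulated data. The number of arrays limits the precision.

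RefSeq accessions, compared without versions against a GRCm38.p6 table, named 15 of the 30 probes with 20 spots, and the other 15 are negative controls by their names. The array design carries mm9, and coordinates are given only for promoters from RefSeq. The genes, lists and tests were chosen with earlier results of these data known. Named genes were the 3 members and, for each, the 3 most similar named genes by Pearson's r; the genes named beside a range or a count, such as Tfrc, Hprt and G6pd2, were chosen after their values were seen. Alternatives were other scalings, normexp (on spot medians, in place of spot means, with offset 50), spot medians, probe filters, variance models, a replicate block, only the compared groups and leaving out each array.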

Additional observations from a re-analysis of the deposited data

How the results depend on the processing

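The knockout changes of the 3 genes stayed below 0 in all 17 alternatives, several of which left the change itself unaltered. The calls of these genes did not hold one side of the threshold. Rpl13a passed with quantile normalization (-0.60), median scaling (-0.73) and normexp (-0.56), Hsp90ab1 with median scaling (-0.58) and normexp (-0.40), and Nono with normexp (-0.36), and the cause was not tested. Leaving out 1 array gave -0.71 to -0.38 for Rpl13a, -0.45 to -0.33 for Hsp90ab1 and -0.41 to -0.29 for Nono. The 9096 calls over all probes became 2701 without knockout replicate 1 and 3789 without replicate 2, and ranged up to 13175 without wild-type replicate 2, where the single array left is taken to vary as the other groups do. Replicate numbers are shared by the groups, but their deviations did not pair the samples (r = -0.26, -0.07 and 0.09 between groups), and with the replicate block the changes were -0.54, -0.39 and -0.35 for Rpl13a, Hsp90ab1 and Nono, none called, with 6378 calls in all.

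Values for Hsp90ab1, Rpl13a and Nono, in that order where 3 are given, moved by more than the SD between replicates as follows. Aorta and liver had 1 array each, so for the difference between them this SD can only come from cultured arrays. Quantile normalization gave -1.51, -2.59 and -2.03 for aorta minus wild-type, -0.92, -1.87 and -1.54 for aorta minus Myocd, 2.89, -0.022 and 2.09 for aorta minus liver, -4.11 for Nono in liver minus wild-type and -0.58 for Hsp90ab1 in Myocd minus wild-type. Median scaling gave -2.32, -3.36 and -2.76 for aorta minus wild-type, -5.13, -3.17 and -4.92 for liver minus wild-type and -1.54, -2.54 and -2.25 for aorta minus Myocd. It also gave 2.81 and 2.16 for Hsp90ab1 and Nono in aorta minus liver, -0.78 and -0.51 in Myocd minus wild-type, and -0.20 and 0.025 in Myocd minus knockout. For Hsp90ab1 and Nono in knockout minus wild-type, median scaling gave -0.58 and -0.53. Scaling on the 12 other named genes gave -1.18, -2.22 and -1.62 for aorta minus wild-type, -3.79, -1.83 and -3.58 for liver minus wild-type, -0.58, -1.58 and -1.29 for aorta minus Myocd, and -0.33 for Nono in Myocd minus wild-type. Normexp gave -4.70, -2.75 and -4.37 for liver minus wild-type, 2.79 and 2.06 for Hsp90ab1 and Nono in aorta minus liver, and -1.22 for Hsp90ab1 in aorta minus Myocd. The authors' log2 table gave no value for the 3 genes.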
